A study of Mus musculus with 4 samples.

Results

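The cells described here are class-switched B cells of mouse Peyer's patches that fall in cluster 4 of the authors' deposited cell table, one of its 7 clusters. They were chosen by their own RNA. A cell of cluster 4 entered when its unique molecular identifiers (UMIs, each counting a captured RNA molecule) over the 8 heavy-chain constant-region genes Ighm, Ighd, Igha, Ighg1, Ighg2b, Ighg2c, Ighg3 and Ighe summed to 3 or more and the gene with most of them was a switched one. Cells in which a switched gene tied with Ighm or Ighd were left out. The rule found 220 of the 1147 cells of cluster 4, in a table of 22569 cells. Of the other cluster 4 cells, 849 were led by Ighm or Ighd and are called unswitched below, 72 held too few UMIs and 6 were ties.

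The study asked how colonisation with segmented filamentous bacteria (SFB), which live anchored to the epithelium of the small intestine, changes the immune cells of the Peyer's patches. SFB-positive and SFB-negative mice were set against each other. All mice were female, wild-type and from Taconic, and no age is given in the labels. CD45+ cells were sorted from patches pooled over 5 mice per group, about 6000 cells were loaded per library and 4000 were aimed for, and each group has 2 droplet libraries, numbered 1 and 2. Whether libraries 1 and 2 of a group came from separate pools of mice is not stated, so p-values below measure the spread between libraries, which may be technical.

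Peyer's patches are the lymphoid follicles of the small intestine, where B cells meet antigen from the gut lumen and switch, above all to IgA. In class switching the DNA that holds the Ighm and Ighd exons, up to a downstream constant region, is removed. The same variable region is thereby joined to another constant region. Memory B cells are resting cells that remain after such a response. In mice CD80, PD-L2 and CD73 are surface proteins used to subdivide them, and CCR6, the receptor of the chemokine CCL20, marks B cells able to reach the zone under the epithelium of the patch.

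The constant regions that decide membership are shown here because the members are defined by them and because the IgG genes resemble each other. These are the first 60 bases of the first exon of each transcript in the GENCODE M21 annotation of GRCm38 (mm10), read 5′ to 3′ on the minus strand of chromosome 12. Capitals mark bases of an IgG gene that differ from Ighg2b at the same position. Igha is left in lower case, as it was not compared position by position.
Igha: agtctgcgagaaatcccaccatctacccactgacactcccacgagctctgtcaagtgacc
Ighg2b: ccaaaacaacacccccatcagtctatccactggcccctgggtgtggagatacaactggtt
Ighg2c: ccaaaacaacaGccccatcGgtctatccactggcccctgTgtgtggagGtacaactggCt
Ighg1: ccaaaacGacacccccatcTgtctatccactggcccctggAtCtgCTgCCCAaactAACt
Ighg3: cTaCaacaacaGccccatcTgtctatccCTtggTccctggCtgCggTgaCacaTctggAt
The stretches lie at chr12:113260177-113260236 (Igha), chr12:113307874-113307933 (Ighg2b), chr12:113288873-113288932 (Ighg2c), chr12:113330464-113330523 (Ighg1) and chr12:113361173-113361232 (Ighg3). Ighg2c differs from Ighg2b at 5 of the 60 positions, and Ighg1 and Ighg3 at 13 each. For each gene the shortest annotated transcript was used, here and above, and transcripts with other 3′ ends were not compared. Over the last 300 bases of these transcripts, nearer the end that a 3′ library reads, identity to Ighg2b in a pairwise alignment was 82.3% for Ighg2c, 69.6% for Ighg1, 60.3% for Ighg3 and 50.2% for Igha. Ighg2c, the closest of them, had 1 UMI in all members together. How reads that match both were assigned was not tested.

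Igha, the IgA constant region, led 153 of the 220 members, Ighg2b led 42, Ighg1 13 and Ighg3 9, and 3 were ties between switched genes. No member was led by Ighg2c or Ighe, and no member held an Ighe UMI. The median member held 10 heavy-chain UMIs (range 3 to 315), against 14 in unswitched cells, and its leading gene held 91.9% of them. In 93 members a single gene held all of them, while 34.5% of members also held at least 1 Ighm or Ighd UMI. At the edge of the rule, 20 members had exactly 3 UMIs and 14 had 4, and in 14 members the leading gene was ahead by 1 UMI. Just outside it, 15 cells led by a switched gene had 2 UMIs and 16 had 1. Igha-led members held a median of 9 heavy-chain UMIs (3 to 89), Ighg2b-led members 17.5 (3 to 53), Ighg3-led members 13 (4 to 315) and Ighg1-led members 6 (3 to 41).

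The second pair of libraries was far deeper and supplies most members. Total UMIs were 6979187 and 83600989 in the SFB-positive and 7198366 and 47273320 in the SFB-negative libraries. SFB-positive libraries 1 and 2 gave 19 and 116 members, and SFB-negative libraries 1 and 2 gave 19 and 66. Within a group, values are given for library 1 and then library 2 throughout. Median UMIs per member were 3173 and 11649.5 in SFB-positive and 2609 and 5963.5 in SFB-negative mice, with 1344 and 3434.5 against 1175 and 2159.5 genes detected. In the summed switched cells, 1 UMI was worth 13.7 CPM (UMIs scaled to a common library size, so that levels can be set beside each other) in SFB-positive library 1 and 16.3 CPM in SFB-negative library 1, so single values of that size there are 1 molecule. The first libraries of both groups also carry 15 antibody tags and another Cell Ranger version in their file headers, so library number, depth and processing version cannot be told apart. Up to 40 cell barcodes were shared by a pair of libraries, but no member's barcode was found in another library.

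Free RNA in droplets can give heavy-chain UMIs to cells that do not transcribe the gene, and so the rule was also applied where it should find nothing. Of T-cell barcodes outside the table, 3 of 245 (1.22%) and 8 of 971 (0.824%) passed it in SFB-positive libraries. In SFB-negative libraries 0 of 223 and 0 of 732 passed, which at 3 counts allows shares of up to 1.35% and 0.410% (exact upper limits 1.64% and 0.503%). An Ighg2b UMI was found in 5.71% and 12.2% of T-cell barcodes in SFB-positive libraries and in 0% and 0.273% in SFB-negative libraries, so this background was itself higher with SFB. An Igha UMI was found in 8.98% and 11.6% of them in SFB-positive and in 8.07% and 1.64% in SFB-negative libraries. T-cell barcodes were shallower than members, with medians of 1416 and 6499 UMIs in SFB-positive and 1585 and 3521 in SFB-negative libraries. In cluster 0 of the table the rule passed between 0.0927% and 0.293% of cells in the 4 libraries, and in cluster 1 between 0.176% and 0.296%. In cluster 2 it passed 0.242% and 2.5% of cells in SFB-positive and 0.383% and 0.398% in SFB-negative libraries. In cluster 3, which holds more switched cells than any other cluster, it passed between 57.9% and 77.7%. Cluster 6 had 6 to 68 cells per library, of which 33.3% to 91.7% passed.

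The label was checked against the markers Ccr6, Igha, Ighg2b and Cd80, of which the immunoglobulin pair was used by the rule. Ccr6 stood at 183 and 552 CPM in SFB-positive and 186 and 364 CPM in SFB-negative members, against 12.8 and 17.4 CPM (SFB-positive) and 11.2 and 13.4 CPM (SFB-negative) in the switched cells of cluster 3. Cd80, the costimulatory ligand, stood at 70.3 and 206 CPM in SFB-positive and 101 and 154 CPM in SFB-negative members, against 4.79 and 12.1 CPM (SFB-positive) and 2.23 and 7.11 CPM (SFB-negative) in switched cells of cluster 3. The members therefore carried both non-immunoglobulin markers. A wider list of 16 memory genes, used again below, did not set them apart when summed. It gave 914 and 4646 CPM in SFB-positive and 896 and 2796 CPM in SFB-negative members. Unswitched cells of cluster 4 had 1127 and 4652 CPM (SFB-positive) and 1042 and 2381 CPM (SFB-negative). Cluster 0 had 949 and 4150 CPM (SFB-positive) and 901 and 2118 CPM (SFB-negative). These levels are a description with no test, because the authors' clusters may themselves have been drawn from these genes. Ccr6 was not particular to members: it was at a similar level in unswitched cells of cluster 4, with 193 and 445 CPM in SFB-positive and 133 and 273 CPM in SFB-negative libraries. At least 1 Cd80 UMI was seen in 55.0% of members and 7.89% of unswitched cells, and at least 1 Ccr6 UMI in 81.8% and 64.0%, with medians of 8590 UMIs per member and 7297 per unswitched cell. In cluster 0 of the table Cd80 stood at 0.488 to 0.830 CPM over the 4 libraries, while Ccr6 stood at 80.6 and 208 CPM in SFB-positive and 50.6 and 123 CPM in SFB-negative libraries. T-cell gene UMIs were about equally rare, in 6.82% of members and 7.77% of unswitched cells.

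**Figure D1:**
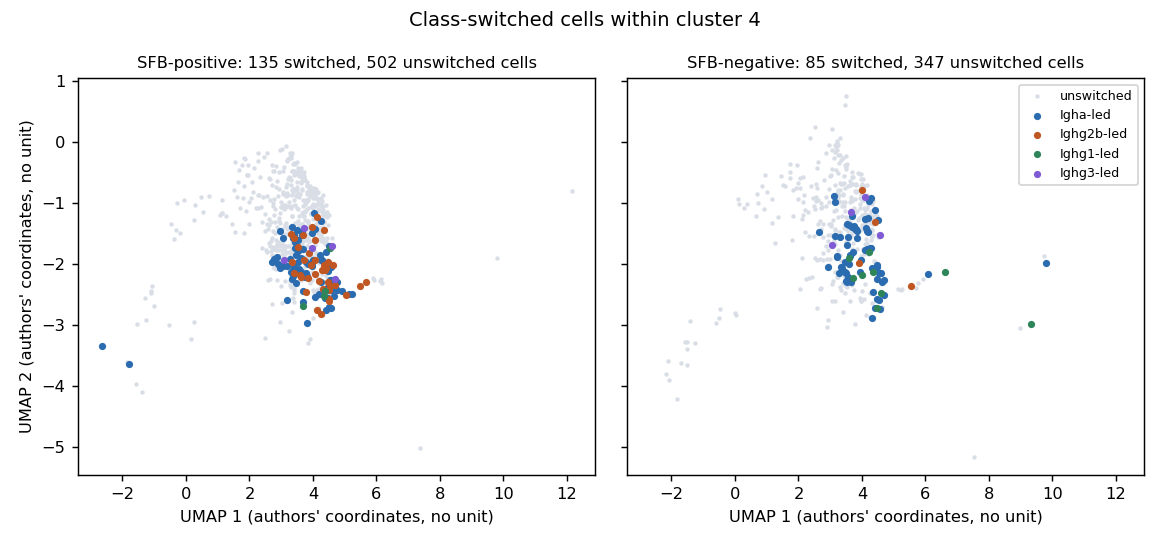
Cells of cluster 4 at the authors' deposited map coordinates (2 axes, no unit), SFB-positive on the left and SFB-negative on the right, with members coloured by leading gene over the unswitched cells in grey. The 135 SFB-positive and 85 SFB-negative members lie among unswitched cells, mostly in the lower part of the cluster.

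How often cluster 4 cells had switched did not separate the groups. Of cells with 3 or more heavy-chain UMIs, 13.0% (95% interval 8.02 to 19.6) and 23.5% (19.9 to 27.5) were switched in SFB-positive mice, against 16.4% (10.2 to 24.4) and 20.6% (16.3 to 25.5) in SFB-negative mice. The means were 18.3% ± 7.44 in SFB-positive and 18.5% ± 3.0 in SFB-negative mice (SD, n = 2 libraries each), the groups overlapped, and the exact two-sided permutation p was 1. Within library number the difference was −3.37 percentage points for the first libraries and 2.90 for the second, so not even its direction was shared. All intervals are exact Clopper-Pearson limits and cover counting error only. With 2 libraries against 2, the smallest p this test can give is 0.333.

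Which constant region the switched cells used differed in both libraries. Ighg2b, the IgG2b constant region, led 8 of 19 members (42.1%, interval 20.3 to 66.5) and 30 of 116 (25.9%, 18.2 to 34.8) in SFB-positive mice. In SFB-negative mice it led 2 of 19 (10.5%, 1.30 to 33.1) and 2 of 66 (3.03%, 0.369 to 10.5). The mean shares were 34.0% ± 11.5 in SFB-positive and 6.78% ± 5.30 in SFB-negative mice (SD, n = 2 each). The groups did not overlap, the difference was 31.6 percentage points between the first libraries and 22.8 between the second, and the exact permutation p was 0.333, the smallest possible. T-cell barcodes, where an Ighg2b UMI was also more frequent with SFB, passed the rule in at most 1.22% of cases per library. That is a share of all T-cell barcodes, whereas the Ighg2b-led share is one of members. Of all cluster 4 cells, 12.5% and 23.3% passed in SFB-positive and 15.3% and 17.6% in SFB-negative libraries, by any switched gene. The part of free RNA in the Ighg2b-led share was not tested.

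Igha-led and Ighg1-led cells had lower shares in SFB-positive mice. Igha led 47.4% (24.4 to 71.1) and 67.2% (57.9 to 75.7) of members in SFB-positive mice, against 73.7% (48.8 to 90.9) and 78.8% (67.0 to 87.9) in SFB-negative mice. The means were 57.3% ± 14.1 in SFB-positive and 76.2% ± 3.61 in SFB-negative mice (SD), a difference of −18.9 percentage points that was −26.3 and −11.5 within library number (exact permutation p = 0.333, n = 2 each). Igha-led cells were still the most frequent class in each of the 4 libraries. Ighg1 led 5.26% and 2.59% of members in SFB-positive mice, against 15.8% and 9.09% in SFB-negative mice, a difference of −8.52 percentage points without overlap (exact permutation p = 0.333, n = 2 each). This order rests on 1 and 3 cells in SFB-positive and 3 and 6 in SFB-negative mice. Ighg3 led 5.26% and 3.45% in SFB-positive mice and 6.06% in SFB-negative library 2, and in SFB-negative library 1 it led 0 of 19, which at 3 counts allows up to 15.8% (exact upper limit 17.6%). These groups overlapped.

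The shares sum to the whole, so one isotype cannot gain without another losing. Counted as molecules, Igha gave 146 and 1303 heavy-chain UMIs of SFB-positive members (60.6% and 52.6% of them) and 167 and 300 of SFB-negative members (87% and 70.8%). Ighg2b gave 68 and 599 UMIs in SFB-positive members (28.2% and 24.2%) and 8 and 16 in SFB-negative members (4.17% and 3.77%). These are the UMIs that the rule used, so they add no independent evidence to the shares of cells.

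**Figure D2:**
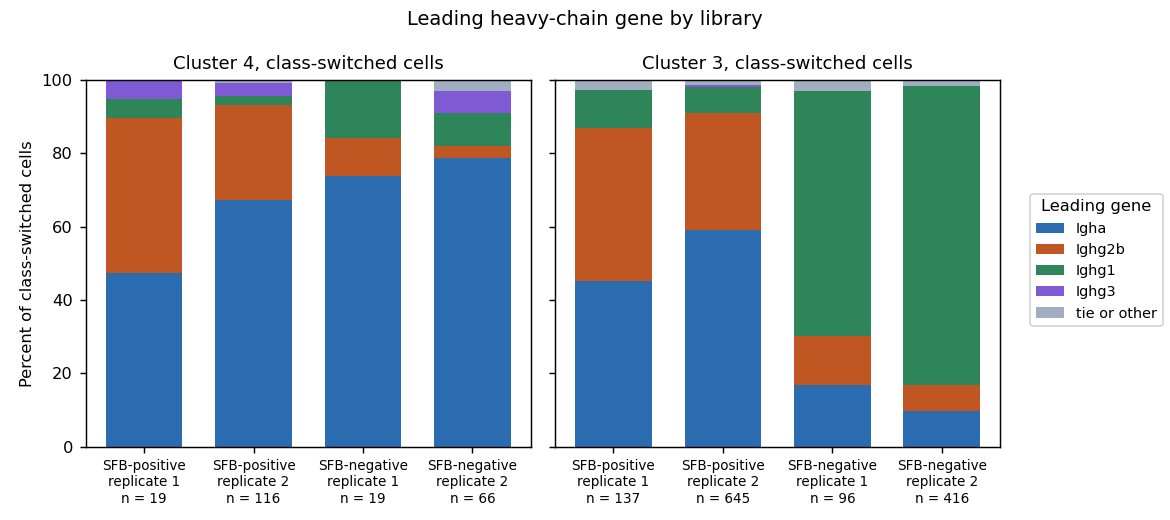
Stacked bars of the percent of class-switched cells led by each heavy-chain gene in each library, for cluster 4 on the left and cluster 3 on the right, with the number of switched cells under each bar. In cluster 4 Ighg2b led 42.1% and 25.9% in SFB-positive libraries and 10.5% and 3.03% in SFB-negative ones; in cluster 3 Ighg1 led 66.7% and 81.5% in SFB-negative libraries.

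Set beside the switched cells of cluster 3, Igha is the one of the 4 leading genes whose share differs in direction. There Igha led 45.3% of 137 and 59.1% of 645 switched cells in SFB-positive mice, against 16.7% of 96 and 9.62% of 416 in SFB-negative mice, so it was 39.0 percentage points higher with SFB where in cluster 4 it was 18.9 lower. Ighg1, in turn, led 10.2% and 7.13% in SFB-positive and 66.7% and 81.5% in SFB-negative cluster 3 cells, a far greater share than in cluster 4. Ighg2b led 41.6% and 31.8% in SFB-positive and 13.5% and 7.21% in SFB-negative mice there, a gap of 26.3 percentage points beside 27.2 in cluster 4. Igha already led most switched cluster 4 cells of SFB-negative mice, and few of those in cluster 3. The difference between the clusters was not tested.

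Some switched cells held RNA of a second isotype. Among Igha-led members, 2 of 9 (22.2%) and 18 of 78 (23.1%) also held an Ighg2b UMI in SFB-positive mice, against 0 of 14 and 3 of 52 (5.77%) in SFB-negative mice. Unswitched cells of the cluster held one about as often, in 24.6% and 33.8% of cells in SFB-positive and 4.17% and 7.57% in SFB-negative mice, so Igha-led members did not hold it more often than unswitched cells in any library. An Ighg1 UMI was held by 0% and 5.13% of Igha-led members in SFB-positive mice, against 0% and 13.5% in SFB-negative mice. An Ighm or Ighd UMI was held by 42.1% and 28.4% of members in SFB-positive and 47.4% and 39.4% in SFB-negative mice. The direction therefore differed with the second isotype. Ighg2b-led members held on average 13.7 Ighg2b UMIs, which the rule favours, and 2.26 Igha UMIs. An Igha UMI was held by 50% and 60% of them in SFB-positive libraries, and by 50% in each SFB-negative library, from 2 cells each. Unswitched cells held one less often, in 17.5% and 22.6% (SFB-positive) and 14.6% and 12.7% (SFB-negative). The leading gene held a median of 76.3% of heavy-chain UMIs in Ighg2b-led and 100% in Igha-led members.

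Antibody tags, which count protein on the cell surface and which the rule did not use, were present in the first library of each group. The IgA tag had a median of 5 counts in 9 Igha-led members of the SFB-positive library (range 2 to 12) and 8.5 in 14 of the SFB-negative library (0 to 108). It had medians of 0 in 8 Ighg2b-led members and 2 in 2 of them, and of 0 in the unswitched cells of either library. In Igha-led members 88.9% and 71.4% carried 3 or more IgA counts, against 6.35% and 4.17% of unswitched cells in the SFB-positive and SFB-negative library. The IgG1 tag showed the same for Ighg1: it had 10 counts in the 1 Ighg1-led member of the SFB-positive library and a median of 52 in the 3 of the SFB-negative library, against a median of 0 and a highest value of 6 and 8 in unswitched cells. Heavy-chain RNA and surface isotype thus named the same class for most Igha-led and Ighg1-led cells. No tag for IgG2b was among the 15, so the class of Ighg2b-led cells could not be checked at the surface. CD38 was lower at the surface of switched cells, with medians of 12 and 15 counts against 20 and 30.5 in unswitched cells. The IgD tag had medians of 2 in switched cells of both libraries, against 3 and 4 in unswitched cells. Many switched cells still carried 3 or more IgD counts, 47.4% in the SFB-positive and 36.8% in the SFB-negative library. In unswitched cells these shares were 60.3% and 65.6%. The IgM tag had no count in any of the 19 switched cells of either library, and at least 1 count in 21.4% of unswitched cells of the SFB-positive and 37.5% of the SFB-negative library. The CCR6 tag had a median of 0 in both classes. The CD24 tag had medians of 5 and 7 in switched cells, against 4 and 7 in unswitched cells. With 1 tagged library per group no test was made.

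**Figure D3:**
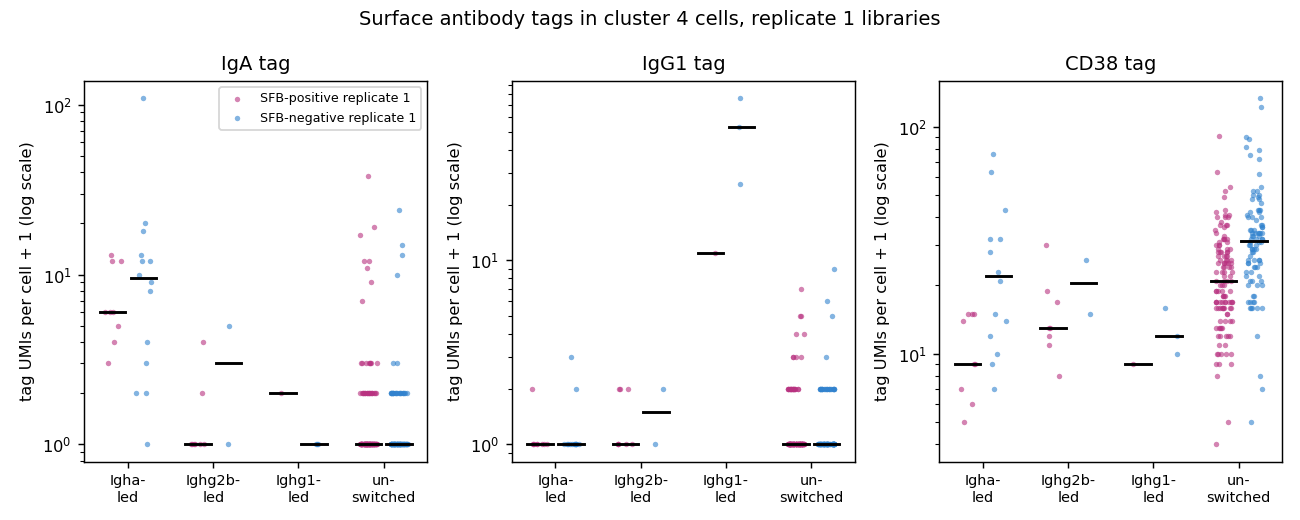
IgA, IgG1 and CD38 antibody tag UMIs per cell plus 1 (log scale) in the first SFB-positive and SFB-negative library, for switched cells by leading gene and for unswitched cells; each point is a cell and each line a median. Igha-led cells stand out for the IgA tag and Ighg1-led cells for the IgG1 tag, where unswitched cells have a median of 0.

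Switched and unswitched cells of cluster 4 were then compared within each library, over counts summed by class, with the 8 heavy-chain genes left out. In edgeR's quasi-likelihood test with the library as a block, 592 of 5035 genes (11.8%) passed a Benjamini-Hochberg adjusted p of 0.05. Of these 247 were higher (4.91%) and 345 lower (6.85%) in switched cells. In all 4 libraries 150 and 256 of them had that direction. DESeq2 called 147 genes (2.92%), of which 146 were among the 592, or 24.7% of them. Without the library as a block 1 gene, Il2rb, passed in edgeR, and 108 had an unadjusted p under 0.05. The median log2 difference over all genes tested was −0.01. The counts lean on SFB-positive library 2, which holds 116 of the members: without it 97 genes passed. Of the 73 passing genes that are named or listed here, 59 could be refitted without it, of which 34 still passed and none changed direction. Those lost included Cd44, Runx3, Cd22, Cd55, Fcrl5, Zeb2, Bach2 and Irf4, while DESeq2 did not call 29 of the 73, among them Cd44, Smad3, Sox5, Notch2 and Traf3. Without SFB-positive library 2 the log2 difference was 0.57 for Cd44, −0.61 for Fcer2a, −0.31 for Fcrl5, −0.31 for Nfatc1, −1.11 for Zeb2, −1.59 for Egr3, −1.18 for Nfkbid and −1.53 for Tmem108. Without SFB-negative library 2 it was 0.42 for Bst2, which then did not pass.

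Genes that rose in switched cells were led by Fscn1, Il2rb and Cd80. Cd80 (chr16:38455561-38496335), the ligand of CD28 and CTLA-4 on T cells, had 68.6 and 188 CPM in SFB-positive and 98.0 and 161 CPM in SFB-negative switched cells. In unswitched cells of the same libraries it had 9.27 and 18.2 CPM in SFB-positive and 21.8 and 20.5 CPM in SFB-negative mice. The lowest switched value was above the highest unswitched one, and the log2 difference was 3.18 ± 0.19 (SE; edgeR adjusted p = 6.93e-17). Il2rb (chr15:78479256-78495271), the chain shared by the receptors of IL-2 and IL-15, had 54.9 and 45.9 CPM (SFB-positive) and 49.0 and 49.8 CPM (SFB-negative) in switched cells. Its unswitched values were 0 and 1.46 CPM in SFB-positive and 0 and 3.11 CPM in SFB-negative libraries. Il2rb was therefore of similar level in switched cells of the 4 libraries and close to nothing in unswitched cells (log2 difference 4.69 ± 0.33, edgeR adjusted p = 2.57e-14). In the first libraries, where 1 UMI is worth 13.7 and 16.3 CPM, its switched values rest on few UMIs. How alike the libraries are is therefore loosely known. Fscn1 (chr5:142960343-142973185), which bundles actin filaments, had 109.8 and 34.4 CPM (SFB-positive) and 114 and 30.8 CPM (SFB-negative) in switched cells, against 6.18 and 1.67 CPM (SFB-positive) and 0 and 0 CPM (SFB-negative) in unswitched cells. Its log2 difference was 4.70 ± 0.36 (edgeR adjusted p = 1.43e-13). Fitted differences of genes at 0 in some sums depend on the prior count of the fit and are not bounds.

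The next of the risen genes included Fgl2, which encodes a fibrinogen-like protein, at 124 and 67.7 CPM (SFB-positive) and 49.0 and 33.2 CPM (SFB-negative) in switched cells, against 6.18 and 7.09 CPM (SFB-positive) and 4.36 and 7.46 CPM (SFB-negative) in unswitched cells (log2 difference 3.09). Rgs1, a brake on chemokine-receptor signalling, had 371 and 242 CPM (SFB-positive) and 865 and 369.9 CPM (SFB-negative) in switched cells, against 117 and 72.2 CPM (SFB-positive) and 144 and 80.9 CPM (SFB-negative) in unswitched cells (log2 difference 1.99 ± 0.14). Both stood higher in switched cells of each library. Bhlhe41, a transcription factor needed by B-1a cells, rose by 1.55, Vim, the intermediate filament vimentin, by 1.81, and the death receptor Fas by 1.64 on the log2 scale. Glipr1, Rrad, Hic1, Basp1, Gatm, Gimap7 and Klhdc2 make up the rest of the highest 15 together with Runx2, described below, with log2 differences between 1.63 and 2.45.

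Genes that fell were led by Cr2 (chr1:195136811-195176716), the complement receptor CD21 that lowers the threshold of the B cell receptor. It had 0 and 11.5 CPM in SFB-positive and 16.3 and 14.2 CPM in SFB-negative switched cells, against 71.1 and 137 CPM (SFB-positive) and 87.2 and 101 CPM (SFB-negative) in unswitched cells. The classes did not overlap, and the log2 difference was −3.40 ± 0.25 (edgeR adjusted p = 6.82e-14). Cd9, a tetraspanin, had 0 and 8.04 CPM (SFB-positive) and 16.3 and 21.3 CPM (SFB-negative) in switched cells, against 86.6 and 40.1 CPM (SFB-positive) and 179 and 77.1 CPM (SFB-negative) in unswitched cells. Cd9, too, was lower in switched cells of every library, with a log2 difference of −2.32. Ms4a4c, Tmem108, Plk2, Treml2, Rasgef1b, Fam169b, Ephx1, Gadd45a and Grap2 also fell, by log2 differences between −2.83 and −1.72.

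**Figure D4:**
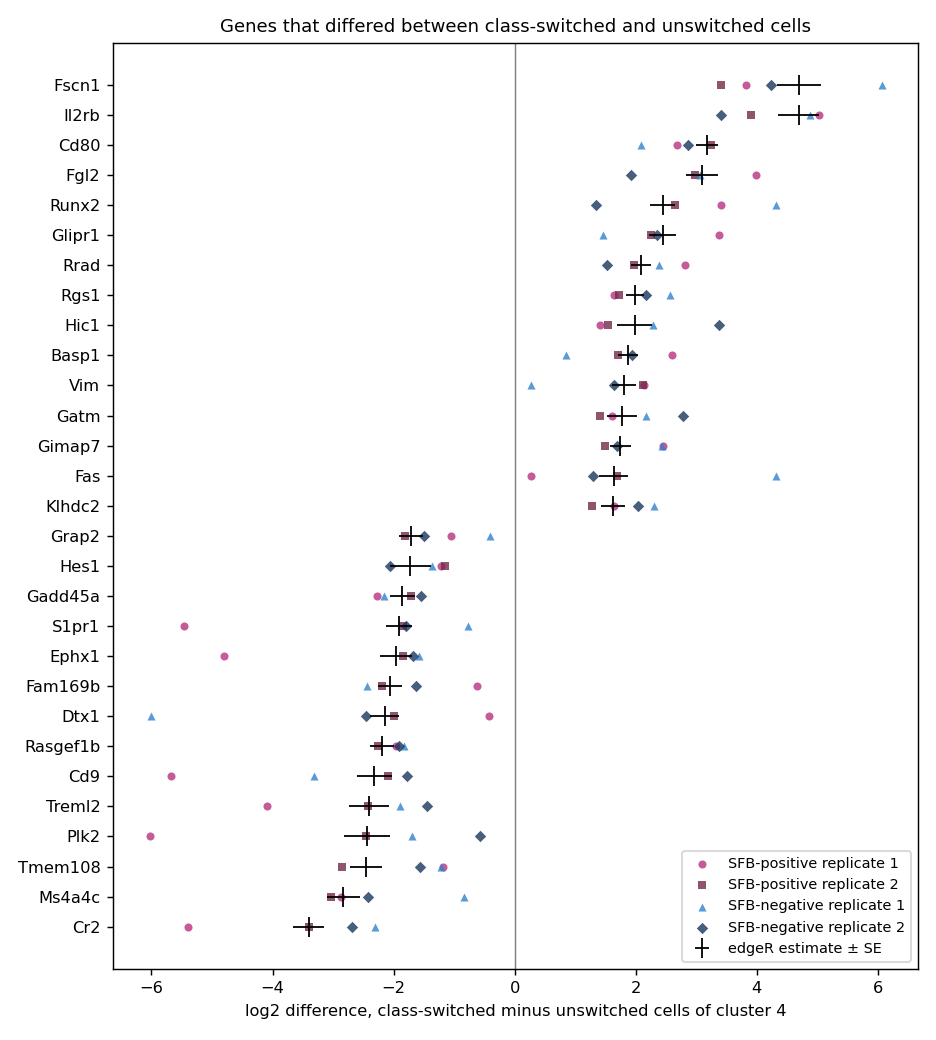
Genes with the highest and the lowest log2 differences, switched minus unswitched cells of cluster 4, among those past the test with 1 direction in all 4 libraries; points are single libraries, crosses the edgeR estimate ± SE. Fscn1, Il2rb and Cd80 lie at 3.18 to 4.70 and Cr2 at −3.40; points of the first libraries scatter most.

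By role, the memory list showed a partial pattern: of 13 tested genes, of 16 listed, 5 rose and 2 fell, with a median log2 difference of 0.28. The 5 were Cd80, Nt5e, Pdcd1lg2, Cd44 and Il9r. For this list and those below, 4.91% of all genes tested rose and 6.85% fell. No list was tested as a set, and lists with 1 or 2 calls are description only. Pdcd1lg2, the gene of PD-L2, had 41.2 and 116 CPM (SFB-positive) and 49.0 and 133 CPM (SFB-negative) in switched cells, against 18.5 and 44.9 CPM (SFB-positive) and 30.5 and 52.9 CPM (SFB-negative) in unswitched cells (log2 difference 1.33 ± 0.17). Nt5e, the gene of the ecto-enzyme CD73, had 41.2 and 327 CPM (SFB-positive) and 16.3 and 187 CPM (SFB-negative) in switched cells, against 15.5 and 61.8 CPM (SFB-positive) and 17.4 and 47.9 CPM (SFB-negative) in unswitched cells. It rose by 2.21 overall but not in SFB-negative library 1, where it rests on 1 UMI. Cd38, an ecto-enzyme kept by resting memory cells, fell: it had 96.1 and 131 CPM (SFB-positive) and 81.6 and 92.5 CPM (SFB-negative) in switched cells, against 380.2 and 258 CPM (SFB-positive) and 244 and 223 CPM (SFB-negative) in unswitched cells (log2 difference −1.18 ± 0.16), and its surface tag was lower as well. Bach2, a repressor of plasma-cell fate, fell by 0.61. Ccr6 did not pass, at a log2 difference of 0.28 ± 0.13 (edgeR adjusted p = 0.206).

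Genes of resting naive and marginal-zone B cells had more falls than rises. Of 9 tested genes of the naive follicular list (10 listed), 6 fell and none rose, with a median of −0.94. Foxp1, a transcription factor of resting B cells, had 192 and 709 CPM (SFB-positive) and 245 and 586 CPM (SFB-negative) in switched cells, against 495 and 2746 CPM (SFB-positive) and 458 and 1682 CPM (SFB-negative) in unswitched cells (log2 difference −1.67 ± 0.11, edgeR adjusted p = 5.96e-15). Satb1, Fcer2a, Cd55 and Cd24a were among the others. Of 8 tested genes of the marginal-zone list (11 listed), 6 fell and 1 rose, with a median of −1.25. Dtx1, a target and regulator of Notch signalling, had 41.2 and 21.2 CPM (SFB-positive) and 0 and 11.9 CPM (SFB-negative) in switched cells, against 55.6 and 89.9 CPM (SFB-positive) and 109 and 72.8 CPM (SFB-negative) in unswitched cells (log2 difference −2.14). Notch2, the receptor that marginal-zone B cells need, fell by 0.78 and its target Hes1 by 1.72. Cr2, Cd9 and Fcrl5 were the other falls, and Mzb1, a chaperone of antibody secretion, rose by 0.35. Of the 4 B-1 genes tested, of 6 listed, Bhlhe41 was the 1 that rose and none fell.

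Of 13 tested genes of the B cell receptor list (14 listed), 7 fell and none rose, with a median of −0.36, where 6.85% of all genes tested fell. Cd79b, a signalling chain of the receptor, had 1098 and 387 CPM (SFB-positive) and 1143 and 389 CPM (SFB-negative) in switched cells, against 1722 and 736 CPM (SFB-positive) and 1731 and 723 CPM (SFB-negative) in unswitched cells (log2 difference −0.80 ± 0.10, edgeR adjusted p = 2.81e-08). Cd79a, its partner chain, fell by 0.25, the inhibitory co-receptors Cd22 and Cd72 by 1.07 and 0.71, the kinase Btk by 0.68, the adaptor Blnk by 0.47 and the transcription factor Nfatc1 by 0.52. Of 11 tested activation genes (12 listed), Egr3, Nfkbid and Fos fell and none rose. Of 10 tested genes of the MHC class II pathway, H2-Oa fell by 0.45 and none rose. Of 6 tested B cell identity genes, Cd79a, Cd79b and Pax5 fell.

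Genes that place cells in tissue moved both ways. Of 12 tested homing genes (16 listed), 2 rose, Itga4 and Itgb2, and 2 fell, S1pr1 among them. Over all genes tested 4.91% rose and 6.85% fell. Itga4, the alpha-4 integrin chain that with beta-7 binds the gut address MAdCAM-1, had 302 and 1105 CPM (SFB-positive) and 245 and 595 CPM (SFB-negative) in switched cells, against 121 and 493 CPM (SFB-positive) and 100.3 and 396 CPM (SFB-negative) in unswitched cells (log2 difference 0.97 ± 0.14, edgeR adjusted p = 7.7e-07). S1pr1, the receptor by which lymphocytes leave lymphoid organs, had 0 and 24.7 CPM (SFB-positive) and 32.7 and 40.3 CPM (SFB-negative) in switched cells, against 74.2 and 93.5 CPM (SFB-positive) and 56.7 and 145 CPM (SFB-negative) in unswitched cells (log2 difference −1.90 ± 0.21). Neither gene's classes crossed within a library.

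TGF-beta directs switching to IgA through SMAD and RUNX factors bound at the Igha promoter. Of 11 tested genes of that list (12 listed), Runx2 and Runx3 rose and Smad3 fell, with a median of −0.21. Runx2 (chr17:44495987-44814797) had 82.4 and 212 CPM (SFB-positive) and 32.7 and 68.8 CPM (SFB-negative) in switched cells, against 6.18 and 32.3 CPM (SFB-positive) and 0 and 26.1 CPM (SFB-negative) in unswitched cells (log2 difference 2.45 ± 0.21, edgeR adjusted p = 2.45e-11). Runx3 had 96.1 and 243 CPM (SFB-positive) and 81.6 and 145 CPM (SFB-negative) in switched cells, against 77.3 and 95.1 CPM (SFB-positive) and 65.4 and 58.5 CPM (SFB-negative) in unswitched cells (log2 difference 1.22 ± 0.16). Both RUNX genes were higher in switched cells of each library, while Smad3 fell by 1.21. Of 5 tested genes of the switch machinery (12 listed), Irf4 fell by 0.66 and none rose.

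Many genes of secretion and division were too low to test. Of 8 tested plasma-cell genes (15 listed), Mzb1, Creld2 and Herpud1 rose and Irf4 fell. Jchain, the chain that joins IgA and IgM into polymers, had 494 and 79.2 CPM (SFB-positive) and 620.4 and 37.9 CPM (SFB-negative) in switched cells, against 12.4 and 13.6 CPM (SFB-positive) and 30.5 and 29.2 CPM (SFB-negative) in unswitched cells. It was far higher in the first libraries and scarcely so in SFB-negative library 2, and it did not pass (log2 difference 2.61 ± 0.76, edgeR adjusted p = 0.167), whereas DESeq2 called it with an adjusted p of 0.0255. Of 4 tested germinal-centre genes (13 listed), Fas and Basp1 rose and none fell. Mki67, a gene of dividing cells, was seen in 22 members and did not have enough counts to be tested. Of 2 tested cell-cycle genes (13 listed), Top2a rose by 1.05. Of 6 tested BCL2-family genes (11 listed) Bax rose by 0.45 and Bcl2 fell by 0.56.

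The list of atypical memory cells, a state described mainly in chronic infection and ageing, split. Of 4 tested genes (11 listed), Fgl2 and Sox5 rose and Fcrl5 and Zeb2 fell, with log2 differences of 3.09, 1.23, −0.68 and −0.58. The fall of Zeb2 was not shared by all switched cells. In plain CPM, Igha-led members were below unswitched cells in each library. IgG-led members had 88.5 and 502 CPM (SFB-positive) and 0 and 133 CPM (SFB-negative). Unswitched cells had 67.2 and 342 CPM (SFB-positive) and 58.1 and 140 CPM (SFB-negative). Tbx21 and Itgax, the best known genes of this list, had too few counts to be tested. Of 7 tested BAFF-receptor pathway genes (8 listed), Traf3 rose by 0.64 and none fell, and of 3 tested interferon genes (12 listed), Bst2 rose by 0.71 and Ifi27l2a fell by 0.93. None of 9 tested heat-shock genes (12 listed) and none of 4 light-chain genes passed in either direction.

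Markers of other cells that a CD45 sort can hold were low in both classes. The T-cell list summed to 14.1 and 32.2 CPM (SFB-positive) and 84.5 and 42.9 CPM (SFB-negative) in switched cells, against 93.5 and 66.7 CPM (SFB-positive) and 104 and 77.3 CPM (SFB-negative) in unswitched cells. Cd3d, Cd3e and Cd3g were at 0 in switched cells of every library but SFB-positive library 2, and the 1 T-cell gene tested, of 9 listed, was Lck, which fell by 1.30. The myeloid list summed to between 135 and 267 CPM in switched and 181 and 263 CPM in unswitched cells, nearly all of it Cst3, with C1qa, C1qb, S100a8 and S100a9 at 0 in switched cells. The epithelial and red-cell lists summed to at most 50.7 CPM in switched and 45.7 CPM in unswitched cells, and none of their 6 and 5 genes had enough counts to be tested. The plasma-cell list summed to between 1503 and 2569 CPM in switched cells, against 1138 to 1727 CPM in unswitched cells, with Tnfrsf17 and Prg2 at 0 in switched cells. The germinal-centre list summed to between 270.5 and 477 CPM in switched cells, against 141 to 309 CPM. The plasma-cell and germinal-centre sums were thus higher in the switched class, and their part in the result was not tested.

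Few genes passed the test between SFB-positive and SFB-negative members. With library number as a block, edgeR called 18 of 4099 genes (0.439%) in switched cells, 5 higher (0.122%) and 13 lower (0.317%) in SFB-positive mice. At an unadjusted p under 0.05 there were 359. DESeq2 called 1 gene, Ighg2b, and edgeR without the block called 0, with 9 at an unadjusted p under 0.05. The 8 heavy-chain genes, which chose the members, were kept in this test. Ighg2b and Ighg3 are among the 5 higher genes, and the 1 DESeq2 call is a gene of the rule. Each gene has 1 residual degree of freedom here, so its error comes wholly from the spread of all genes. In simulated data the SFB test recovered 11.5% of changes of 1 on the log2 scale, so changes of that size would mostly have been missed.

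Ighg2b (chr12:113302965-113307933) had 941 and 361 CPM in SFB-positive members, against 132 and 39.1 CPM in SFB-negative members (log2 difference 3.06 ± 0.40, edgeR adjusted p = 1.91e-11, and DESeq2 adjusted p = 0.000679). The groups did not overlap. Ighg2b, like the other heavy-chain genes below, is one of the genes that chose the members, by the same rule in both groups, so this restates the isotype shares as a level and is not independent of them. Without the block its edgeR adjusted p was 1.00, and over the alternatives its log2 difference ranged between 2.14 and 3.89. It was the 1 gene that both tools called, and as a gene of the rule it gains no independent support from that. Igha (chr12:113254830-113260236) had 2019.8 and 785 CPM in SFB-positive and 2755 and 733 CPM in SFB-negative members, so its level overlapped although its share of cells did not (log2 difference −0.16 ± 0.37, edgeR adjusted p = 0.952). Ighg1 had 41.5 and 30.1 CPM in SFB-positive and 115 and 73.3 CPM in SFB-negative members, and did not pass (log2 difference −1.31 ± 0.52, edgeR adjusted p = 0.307). Ighg3 had 152 and 178 CPM in SFB-positive and 0 and 61.0 CPM in SFB-negative members and passed (log2 difference 1.86, edgeR adjusted p = 0.046), but 1 cell of SFB-positive library 2 held 245 of its UMIs. With the cell richest in heavy-chain UMIs left out of each sum, its log2 difference was −0.18 with an edgeR adjusted p of 0.96.

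The other genes that rose with SFB were Slamf1, Alcam and Zeb2. Zeb2 (chr2:44983632-45117395), a transcription factor linked to atypical memory and age-associated B cells, had 55.3 and 263 CPM in SFB-positive members, against 0 and 73.3 CPM in SFB-negative members (log2 difference 1.96 ± 0.52, edgeR adjusted p = 0.0424). Slamf1, a self-binding receptor of lymphocytes, had 41.5 and 59.0 CPM in SFB-positive and 0 and 9.77 CPM in SFB-negative members (log2 difference 2.72 ± 0.69, adjusted p = 0.0237 in edgeR). Alcam, the ligand of CD6 on T cells, had 13.8 and 501 CPM in SFB-positive and 0 and 127 CPM in SFB-negative members (log2 difference 2.0 ± 0.46, adjusted p = 0.00501 in edgeR). All 3 were higher in SFB-positive members within both library numbers, from few UMIs in the first. Without SFB-negative library 1, Alcam was at 0.91 and Zeb2 at 1.03 on the log2 scale, and without SFB-negative library 2, where the remaining sum holds none of their UMIs, at 10.34 and 9.63. Without SFB-negative library 2 the fitted value of Ighg3 was 9.57. Zeb2 was also higher with SFB outside the members: unswitched cells had 67.2 and 342 CPM in SFB-positive and 58.1 and 140.04 CPM in SFB-negative mice, and cluster 0 had 57.1 and 176 CPM in SFB-positive and 31.6 and 75.03 CPM in SFB-negative mice. Among Igha-led members Zeb2 had 26.9 and 146 CPM in SFB-positive and 0 and 47.7 CPM in SFB-negative mice. Among IgG-led members it had 88.5 and 502 CPM in SFB-positive and 0 and 133 CPM in SFB-negative mice. The part of isotype in its difference was not tested.

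Of the 13 genes that were lower in SFB-positive members, 6 were so within both library numbers. In the first libraries each of these 6 rested on at most 7 UMIs per library, so the agreement there is weak. Cd36, a fatty-acid transporter, had 0 and 9.64 CPM in SFB-positive and 49.5 and 61.0 CPM in SFB-negative members (log2 difference −2.71 ± 0.44, edgeR adjusted p = 7.26e-07). Lars2, the mitochondrial leucyl-tRNA synthetase, had 0 and 41.6 CPM in SFB-positive and 33.0 and 574 CPM in SFB-negative members (log2 difference −3.80 ± 0.49, edgeR adjusted p = 1.25e-11). Nucb2 had 0 and 19.9 CPM in SFB-positive and 49.5 and 85.5 CPM in SFB-negative members, and mt-Atp8, Rps27rt and Camk1d were the remaining 3. Camk1d had 13.8 and 468 CPM in SFB-positive and 33.0 and 1636 CPM in SFB-negative members (log2 difference −1.78) and turned to 3.07 without SFB-negative library 2, with values between −6.10 and −1.05 when each other library was left out in turn. Lars2 was at −8.90 without SFB-positive library 2. Several of the other 7, such as Cdk8 with 13.8 and 103 CPM in SFB-positive and 0 and 2845 CPM in SFB-negative members, were high in SFB-negative library 2 alone. Lars2, too, was highest there, with 235 UMIs against 2 in SFB-negative library 1.

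Cd80 and Ccr6 did not pass between the groups, with log2 differences of 0.11 and 0.32 and edgeR adjusted p of 0.974 and 0.856. Of the gene lists, the atypical memory list had Zeb2 as 1 risen gene of 4 tested, and no gene of any other list passed in either direction. Over all genes tested 0.122% rose and 0.317% fell. The median over all genes tested was 0.12. Whether SFB changed switched cells by another amount than unswitched cells was tested as an interaction: none of 6242 genes passed in edgeR (0 calls, 0%; 177 had an unadjusted p under 0.05). DESeq2 also made 0 calls, and 17 genes had an unadjusted p under 0.05. In simulated data of this design, drawn at a coefficient of variation of 0.15, the interaction recovered 31% of changes of 2 on the log2 scale. It recovered 1% of changes of 1, so a lesser difference would mostly have been missed.

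Members led by Igha and by an IgG gene could be compared in the second libraries, which have 78 and 52 Igha-led and 37 and 12 IgG-led cells in SFB-positive and SFB-negative mice. Of the IgG-led cells, Ighg2b led 30 in SFB-positive library 2 and 2 in SFB-negative library 2. In the latter Ighg1 led 6 and Ighg3 led 4, so the IgG-led class differed in make-up between the libraries. Values below are from SFB-positive library 2 and then SFB-negative library 2. With the library as a block, edgeR called 28 of 5819 genes (0.481%), 17 higher (0.292%) and 11 lower (0.189%) in Igha-led cells, and 417 passed an unadjusted p of 0.05. DESeq2 called 1 gene, the chaperone gene Hspa5, which edgeR called too. With 2 libraries in this test, each gene's error in edgeR comes mostly from the spread of all genes.

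Igha-led cells had more Runx2, with 274 and 86.8 CPM, against 94.4 and 23.2 CPM (the last from 2 UMIs) in IgG-led cells (log2 difference 1.56 ± 0.28, edgeR adjusted p = 0.00761). It was the 1 gene of 11 tested in the TGF-beta and IgA list that passed. Itga4 had 1313 and 694 CPM in Igha-led cells, against 670.2 and 487 CPM in IgG-led cells (log2 difference 0.82 ± 0.16, edgeR adjusted p = 0.0155). Both genes had also risen in switched against unswitched cells. Antxr2, an anthrax toxin receptor that binds matrix proteins, had 521 and 407 CPM in Igha-led and 166 and 174 CPM in IgG-led cells (log2 difference 1.54 ± 0.23, edgeR adjusted p = 0.000877). Cd86, the partner of Cd80 as a ligand of CD28, had 951 and 905 CPM in Igha-led and 655 and 441 CPM in IgG-led cells (log2 difference 0.71 ± 0.16, adjusted p = 0.0482 in edgeR). Lgals1, a galactoside-binding lectin, had 87.1 and 53.4 CPM in Igha-led and 18.6 and 0 CPM in IgG-led cells, and Sox5 had 150.2 and 117 CPM in Igha-led and 61.9 and 46.4 CPM in IgG-led cells, with log2 differences of 2.37 and 1.28. Tmtc2, Camkmt, Specc1, Hilpda, Rbpj and Emb were higher as well, by 1.07 to 2.52.

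IgG-led cells had more Zeb2 and S1pr1. Zeb2 had 129.7 and 53.4 CPM in Igha-led cells, against 446 and 151 CPM in IgG-led cells (log2 difference −1.73 ± 0.25, edgeR adjusted p = 0.000877). S1pr1 had 10.7 and 20.03 CPM in Igha-led and 43.3 and 128 CPM in IgG-led cells (log2 difference −2.24 ± 0.49, edgeR adjusted p = 0.0391). Cd38 had 84.4 and 86.8 CPM in Igha-led and 207 and 128 CPM in IgG-led cells (log2 difference −1.13 ± 0.26, edgeR adjusted p = 0.044). For each of these 3, both Igha-led sums were below both IgG-led sums. Bach2 fell by 0.54 and the kappa light-chain gene Igkc by 0.45 in Igha-led cells, and Gm8369, Sema4b, Vps54, Pde4d and Rplp0 were also lower. Ccr6 and Cd80 did not pass, with log2 differences of 0.18 and 0.86 and edgeR adjusted p of 0.999 and 0.322. The IgG-led sum of SFB-negative library 2 comes from 12 cells. By list, Cd86 rose and Cd38 and Bach2 fell of 13 memory genes tested, Sox5 rose and Zeb2 fell of 5 atypical memory genes, and Itga4 rose and S1pr1 fell of 10 homing genes. Cd86 was also the 1 of 12 activation genes, and Igkc the 1 of 4 light-chain genes, that passed. Besides Runx2, no gene of the other lists passed in edgeR. Over all genes tested 0.292% were higher and 0.189% lower in Igha-led cells.

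**Figure D5:**
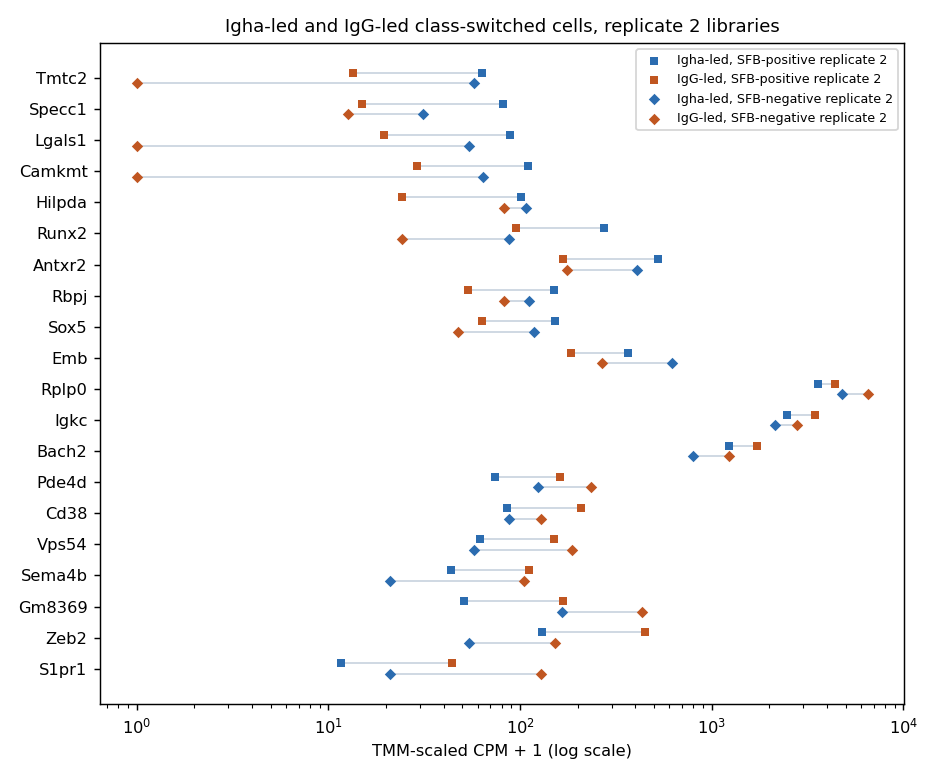
TMM-scaled CPM plus 1 (log scale) of the 10 genes with the highest and the 10 with the lowest difference between Igha-led (blue) and IgG-led (orange) members of the second libraries; a line joins both classes of a library. Runx2 and Antxr2 lie higher and Zeb2 and S1pr1 lower in Igha-led cells of both libraries.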

How the data were processed

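Single-cell libraries of sorted CD45+ Peyer's patch cells were counted by the authors with Cell Ranger, version 5.0.1 on mm10 per the submitters' processing notes and versions 6.0.0 and 7.0.0 per the file headers. The deposited matrices hold raw UMI counts for 31053 genes. The deposited cell table holds, per the file headers, cluster numbers, map coordinates (scores of arbitrary scale), the percent of mitochondrial UMIs and other cell annotations, and the authors' clusters were used unchanged. How doublets were treated is not given in the sources used here, and no caller was run; members with T-cell UMIs were left out as an alternative. The members and the gene lists were chosen with earlier results of these data known.

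Counts were summed per library and class. Genes were filtered with filterByExpr, scaled by TMM and tested with edgeR 4.0.16 (robust quasi-likelihood, R 4.3.3) with Benjamini-Hochberg adjustment over all genes tested. DESeq2 1.42.0 was an alternative. Levels are TMM-scaled CPM, and those of the cells set beside cluster 3 are plain CPM. The class, interaction and isotype tests leave out the 8 heavy-chain genes and block on library, with at least 10 cells per library and class. The SFB test blocks on library number, because that number goes with depth and processing version. Same-numbered libraries deviated together from their group means (r = 0.592 over 4099 genes). This r can follow from depth, since low genes fall to 0 in the shallow first libraries. It therefore does not decide whether the block is needed. Named genes were the 15 (class test) or 10 (other tests) highest and lowest differences past 0.05, with a level of at least 20 CPM in the higher class and 1 direction in all libraries compared, besides markers and list members. Other alternatives were RLE scaling, no filter, at least 5 heavy-chain UMIs, a leading gene with at least 75% of them, cells thinned to 1000 UMIs, and each library left out. On simulated data with 200 changed genes, the class test recovered 53.3% of changes of 2 on the log2 scale, the SFB test 50%, and the isotype test 70.8%. Of changes of 1 on the log2 scale, the class test recovered 33.3%, the SFB test 11.5% and the isotype test 17.3%. The simulated counts had a coefficient of variation of 0.15, and changed genes were drawn above a minimum mean count. Recovery would be lower where libraries vary more than that. A few genes that met these rules are not reported here.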

Additional observations from a re-analysis of the deposited data

Results flagged for a closer look

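The share of switched cells led by Igha moved in opposite directions in the 2 clusters that hold most switched cells. In cluster 4 it was 18.9 percentage points lower in SFB-positive mice (a difference of −18.9), in both library numbers. In cluster 3 it was 39.0 percentage points higher in SFB-positive mice, also in both. The difference between the clusters was not tested.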

How the results depend on the processing

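Shares (percentage points, SFB-positive minus SFB-negative). The switched share, −0.231, became 1.96 with at least 5 UMIs, 0.00587 in cells thinned to 1000 UMIs and 1.44 over all cluster 4 cells, and leaving out a library gave −5.49 to 5.03 (5.03 without SFB-positive replicate 1, 1.89 without SFB-negative replicate 2). The Ighg1-led share became 3.31 with a leading gene at 75% or more and 0 in thinned cells, and leaving out a library gave −11.9 to −5.17. The Ighg3-led share gave −1.70 to 4.36, with −1.70 without SFB-negative replicate 1. Leaving out a library gave −28.9 to −8.99 for Igha and 19.1 to 35.3 for Ighg2b, which kept their direction under every alternative run. Genes. Switched against unswitched cells gave 592 calls, 578 with the cell of most heavy-chain UMIs left out (chosen after seeing the data), 147 with DESeq2, 1 (Il2rb) without the replicate block, here the library, and 97 to 647 without a library: 97 without SFB-positive replicate 2 and 375 without SFB-negative replicate 2. The SFB test gave 18 calls, 1 with DESeq2, 0 without the replicate block and 0 to 1 without a library, those fits having no block. The interaction gave 0 calls, 5 with RLE scaling (Actb, Dennd5a, Eprs, Gem and Junb) and 1 (Dennd5a) with the cell of most heavy-chain UMIs left out. The isotype test gave 28 calls, 1 with DESeq2, 0 without the replicate block, 61 with RLE scaling and 66 without cells holding T-cell UMIs. It could not be run with 5 UMIs, with the 75% minimum or without either second library, since fewer than 2 libraries then have 10 cells of each class. Of named genes, Camk1d reversed to 3.07 without SFB-negative replicate 2 and Ighg3 to −0.18 without the richest cell. The cause of these changes was not tested. The first libraries hold 19 members each, which limits what they can show.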
